A study of Gallus gallus with 2 samples.

Results

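The DEAD and DEAH box helicase genes were described in the chicken B cell line DT40 with and without PTIP. They were taken as the genes whose symbol on the array begins with DDX or DHX followed by a number, and 41 of the 13009 genes with a platform symbol met this rule, 29 named DDX and 12 named DHX. Each gene was read with the probe set of the highest mean log2 signal. Total RNA came from a PTIP deficient clone (PTIP-/-/-) and from a wild-type clone of DT40, an established line that derives from the bursa of Fabricius, both grown at the same temperature. One GeneChip chicken genome array was hybridised per genotype, so there were 2 arrays and 1 sample per group. Clone, culture, RNA extraction and hybridisation were not replicated, and a difference between genotypes cannot be told apart from one between clones.

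RNA helicases of the DEAD and DEAH box families use ATP to open RNA duplexes or to strip proteins from RNA, and are named after the one-letter amino acid code of a conserved ATPase motif. DEAD box proteins act locally on short duplexes, while DEAH box proteins move along a strand. Between them they drive ribosome assembly, spliceosome remodelling, mRNA export, translation initiation and mRNA decay, and a few act in viral RNA sensing, in the germ line or on DNA. PTIP is encoded by PAXIP1; the protein has BRCT domains, acts at DNA breaks and belongs to a complex that methylates histone H3 at lysine 4.

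The values are signal intensities on a linear scale, scaled by the authors to the same trimmed mean in both arrays. A gene was called measured where its signal reached 31.0, percentile 40 of the non-control values. The signal of PAXIP1 was 593 in PTIP deficient cells and 1045 in wild-type cells, a log2 ratio of -0.82. Where its probe sets lie relative to the disrupted exons was not given in the sources used here, and the genotype is not checked by them. The control transcripts added at hybridisation were higher in the PTIP deficient array, with a median log2 ratio of 0.30, and those added at labelling had a median of 0.08. B cell markers were measured in both arrays for 12 of 12 listed genes on the array. Their summed signals were 23545 in PTIP deficient and 79823 in wild-type cells. The largest wild-type signals were those of IGLL1 (3619 in PTIP deficient and 29961 in wild-type cells) and JCHAIN (68.5 and 11947). Of the 12 log2 ratios, 10 were below 0 and 2 above, with a median of -0.58. The summed signal of 9 T cell markers was 17441 in PTIP deficient and 9495 in wild-type cells, most of it from CD3D (15919 and 8831), and 3 of the 9 were under the floor in both arrays. Of the 6 measured in both, 4 had a log2 ratio above 0 and 2 below. At least 2-fold higher were 2 of the 6, where 5.03% of all measured genes were, namely CD8A (563 in PTIP deficient and 78.2 in wild-type cells) and CD5 (303 and 73.3). In the macrophage and granulocyte list 0 of 8 genes, and in the erythroid and thrombocyte list 0 of 3, exceeded in both arrays the signal of 131.5 that probe sets for reporter sequences reached, one bright signal apart. The mesenchymal and epithelial list had 1 such gene of 9, the T cell list 2 of 9 and the B cell list 9 of 12. At the lower bar of the floor, used above for the B cell list, the macrophage and granulocyte list had 3 measured genes. The erythroid and thrombocyte list had 1 and the mesenchymal and epithelial list 4. The summed signal of the mesenchymal and epithelial list was 1585 in PTIP deficient and 478 in wild-type cells. LUM alone gave 1019 in PTIP deficient and 6.18 in wild-type cells, and the other 8 genes 566 and 471. The part of these marker differences in the helicase values was not tested.

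The helicase genes differed little between the 2 arrays, as did some lists of related genes given below. Of the 41, 39 were measured in both, 1 only in PTIP deficient cells and 1 in neither. Since each genotype has 1 array, genotypes cannot be tested against each other, and differences are given by size with 2-fold as the bar. Of the 39 measured helicase genes, 0 were at least 2-fold higher in PTIP deficient cells, where 5.03% of all 9165 measured genes were, and 0 were at least 2-fold lower, where 4.46% were. At the lower bar of 1.5-fold, 0 were higher (13.1% of all genes) and only DDX17 was lower (11.5% of all genes). At 1.2-fold, DDX11 and DHX35 were higher (28.6% of all genes), and 6 genes were lower, namely DDX17, DDX6, DHX29, DDX42, DDX28 and DDX31 (25.9% of all genes). Within 1.2-fold lay 31 of the 39, against 45.4% of all measured genes. Helicase genes were bright, and the shares among bright genes, which were lower at 2-fold, are given below. Ratios below 0 were found for 20 of 39 helicase genes and for 47.4% of all genes. The count was 19 of 26 with the second brightest probe set and 22 of 33 without probe sets that may detect related sequences (_s_at, _x_at). Both settings leave out genes, so the genes compared change as well as the probe set. With the mean of all measured probe sets the count was 17 of 39.

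The log2 ratios, PTIP deficient minus wild-type, ranged from -0.81 for DDX17 to 0.50 for DDX11. Their median was -0.02 over the 39 helicase genes and 0.03 over all measured genes. The quartiles of the helicase ratios were -0.21 and 0.14, and those of all genes -0.28 and 0.32. Helicase genes were brighter than most, with a median signal (geometric mean of both arrays) of 1963 against 580 for all measured genes, and bright probe sets vary less. Among genes with both signals at or over 500, a limit chosen after seeing the data, 26 of 32 helicase genes and 57.2% of 4579 genes were within 1.2-fold. In that bright range 0 of 32 helicase genes were at least 2-fold higher and 0 lower, where 2.23% and 1.59% of all genes were. The median size of the log2 ratio there, either way, was 0.17 for helicase genes and 0.22 for all genes. These shares describe 2 arrays, and the difference between them was not tested.

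**Figure D1:**
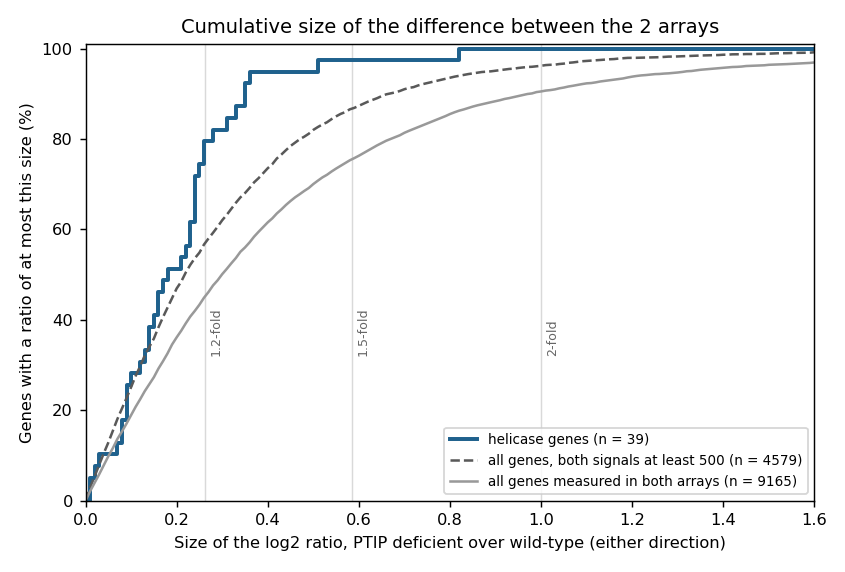
Cumulative percentage of genes (y axis) whose log2 ratio between PTIP deficient and wild-type cells was at most the size on the x axis, in either direction, for the 39 helicase genes (blue), genes with both signals at least 500 (dashed) and all 9165 measured genes (grey). The helicase curve reaches 100% at DDX17, with a size of 0.81, below the 2-fold line.

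DDX17 had the largest difference of the family by the brightest probe set. With the mean of all measured probe sets DDX11 lay farther from 0 (0.92 against -0.63 for DDX17), as it did with the second brightest (0.64 against -0.45). DDX17 and its paralogue DDX5 are transcriptional coregulators that also take part in splicing and in microRNA processing. The signal of DDX17 was 3224 in PTIP deficient cells and 5669 in wild-type cells, 1.76-fold lower (log2 ratio -0.81). Its second probe set gave 304 and 416, a log2 ratio of -0.45, so both lay on the same side. In RNA from a whole culture, fewer cells with a transcript and less of it per cell cannot be told apart. Of all measured genes, 13.9% had a ratio as far from 0 as that of the brighter probe set. DDX5, measured with 1 probe set, had 19215 in PTIP deficient and 17724 in wild-type cells, a log2 ratio of 0.12 on the other side of 0. The probe set SD given below, 0.36, is larger than this ratio of DDX5 and smaller than the difference for the brighter probe set of DDX17.

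The other genes of this group had smaller ratios. DDX20 (gemin 3), the helicase of the SMN complex that assembles spliceosomal small nuclear ribonucleoproteins, had 2144 in PTIP deficient and 1798 in wild-type cells (log2 ratio 0.25), with -0.07 from its second probe set and 0.10 from the third. DDX1, a subunit of the human tRNA ligase complex, had 4614 in PTIP deficient and 5076 in wild-type cells, a log2 ratio of -0.14.

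Of the 39 helicase genes measured in both arrays, DDX11 had the highest ratio by the brightest probe set. It encodes a DNA helicase of the iron-sulphur cluster type that acts in sister chromatid cohesion, and so is not an RNA helicase in the strict sense. Its brightest probe set had 210 in PTIP deficient and 149 in wild-type cells, 1.41-fold higher (log2 ratio 0.50). The second had 220 in PTIP deficient and 141 in wild-type cells (0.64), and the third 219 and 56.3 (1.96). Of its 6 probe sets, 4 were measured in both arrays, and all 4 were higher in PTIP deficient cells, with 69.7 and 46.6 for the fourth. The fifth and sixth went the other way with signals under the floor. They had 27.2 in PTIP deficient and 37.0 in wild-type cells, and 12.0 and 14.4. In 2 of the 4 the wild-type signal was under the reporter level of 131.5. Of all measured genes, 29.95% had a ratio as far from 0 as the brightest DDX11 probe set.

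The largest role group was ribosome biogenesis. Its helicases unwind or release pre-ribosomal RNA in the nucleolus, and for many of them the role is best known from their yeast counterparts. All 14 members were measured in both arrays, and the median log2 ratio was -0.04. Of the 14, 7 had a ratio below 0 and 7 above, where 47.4% of all measured genes were below 0. The ratios ran from -0.30 for DDX31 to 0.25 for DDX10. DDX31 had 1597 in PTIP deficient and 1969 in wild-type cells, and its second probe set lay at -0.42. DDX10, whose yeast counterpart Dbp4 releases a small nucleolar RNA from the early pre-ribosome, had 2256 in PTIP deficient and 1893 in wild-type cells.

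DDX21, a nucleolar helicase that also binds RNA polymerase I and II genes in human cells, had one of the highest signals of the family. It stood at 11642 in PTIP deficient and 11500 in wild-type cells, a log2 ratio of 0.02, and its other 2 measured probe sets lay at 0.07 and 0.10. The sign of a ratio this small was not fixed: DDX21 was below 0 under quantile normalization and loess. DHX33, which acts in ribosomal RNA synthesis, had 4554 in PTIP deficient and 4524 in wild-type cells (0.01), and its sign also turned with the scaling. DDX27, which acts in the maturation of the large subunit RNA, had 3729 in PTIP deficient and 4392 in wild-type cells, a log2 ratio of -0.24. DHX37, whose yeast counterpart Dhr1 removes the U3 RNA from the small subunit precursor, had 2491 in PTIP deficient and 2118 in wild-type cells (0.23), but one of its other probe sets was at -0.06. DDX49, with the yeast counterpart Dbp8, had 2577 in PTIP deficient and 2218 in wild-type cells, a log2 ratio of 0.22. DDX52 lay at -0.22 and DDX54 at -0.15. DDX55 was at -0.18 (second probe set -0.31) and DDX51 at -0.16 (second probe set -0.33). DDX24 was at -0.10, with probe sets from -0.26 to 0.02, and DDX18 and DDX47 were at 0.06 and 0.09.

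The splicing helicases power the ordered rearrangements of the spliceosome. The 7 on the array were measured in both samples, with a median of -0.02 and a range from -0.34 to 0.27. Of the 7, 4 were below 0 and 3 above, where 47.4% of all measured genes were below 0. DHX15, which takes apart the spliceosome after splicing and is also found in ribosome assembly, had 17170 in PTIP deficient and 18256 in wild-type cells (log2 ratio -0.09; second probe set -0.11). DHX38, the counterpart of yeast Prp16, which acts before the second catalytic step, had 3652 in PTIP deficient and 3637 in wild-type cells, a log2 ratio of 0.01 that was below 0 with median centring. DHX8, the counterpart of yeast Prp22, which releases the spliced mRNA, had 763 in PTIP deficient and 880 in wild-type cells (-0.20), and its 4 probe sets ranged from -0.31 to 0.06.

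The widest ratios in the splicing group belonged to DDX42 and DHX35. DDX42, which associates with the U2 particle, had 1216 in PTIP deficient and 1542 in wild-type cells (log2 ratio -0.34), but its dimmer probe set had 193 and 137 and lay at 0.49. The direction for DDX42 was therefore not settled by the array. DHX35, found in purified spliceosomes, had 717 in PTIP deficient and 593 in wild-type cells, 1.21-fold higher (0.27), with 1 probe set. DDX46, the counterpart of yeast Prp5, which acts at the branch site, had a log2 ratio of 0.09, and DDX41, a spliceosome-associated helicase that is also described as a DNA sensor, had -0.02 with other probe sets at 0.16 and 0.42.

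In the mRNA export group, DDX19, which remodels messenger ribonucleoproteins at the nuclear pore, had 10123 in PTIP deficient and 11995 in wild-type cells. This is a log2 ratio of -0.24, and its second probe set was at -0.05. DDX25, a testis helicase of the same subfamily in mammals, had signals of 122 in PTIP deficient and 112 in wild-type cells, both under the reporter level.

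The 4 helicases of translation and mRNA fate had all ratios below 0, where 47.4% of all measured genes were below 0. The 2 genes for viral RNA sensing were both above 0, and with so few genes a shared sign does not mark out a group. The 4 translation and mRNA fate genes had a median log2 ratio of -0.21 and a range from -0.35 to -0.08. DDX6, which represses translation and promotes decapping in P-bodies, had 550 in PTIP deficient and 702 in wild-type cells (log2 ratio -0.35), and -0.14 with its second probe set. DHX29, which helps the small ribosomal subunit scan structured leaders, had 376 in PTIP deficient and 477 in wild-type cells (-0.34), and -0.15 with its second probe set. DDX3X, which eases initiation on structured mRNAs, had 15216 in PTIP deficient and 16068 in wild-type cells (-0.08). DHX36, which unwinds G-quadruplexes, had 5349 in PTIP deficient and 5647 in wild-type cells, a log2 ratio of -0.08, and its dimmer probe sets had both signs. Each of these 4 ratios is smaller than the probe set SD of 0.36 over all genes, which covers probe error only. The ratios of DDX6 and DHX29 exceed the SD of 0.18 found among helicase genes, but those of their second probe sets do not.

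Of the helicases of mitochondrial RNA, DDX28, which acts in assembly of the large mitochondrial ribosomal subunit, had 2482 in PTIP deficient and 3102 in wild-type cells. Its log2 ratio was -0.32, and the 3 probe sets ranged from -0.32 to 0.13. DHX30, which also acts in mitochondrial ribosome assembly, had 1646 in PTIP deficient and 1395 in wild-type cells (0.24), but -0.18 with the one probe set left when probe sets that may detect related sequences (_s_at) were dropped. Neither gene therefore had a settled direction. Of the remaining genes, DHX40 had a log2 ratio of 0.15 with signals of 2612 in PTIP deficient and 2356 in wild-type cells. DDX59 had 0.15 from its brightest probe set and -0.09 from the next. DHX57 was dim, at 157 in PTIP deficient and 183 in wild-type cells (-0.23), with measured probe sets from -0.23 to 0.94.

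The genes for viral RNA sensing and for the germ line lay under the reporter level. DHX58 encodes LGP2, a regulator of RIG-I-like receptor signalling. It had 86.1 in PTIP deficient and 73.2 in wild-type cells, and the interferon-inducible DDX60 had 35.4 and 32.2, so both genes lay under the reporter level in both arrays. DDX4, the vertebrate vasa gene and a marker of germ cells, had 31.8 in PTIP deficient and 4.12 in wild-type cells. The brighter of these signals only just reached the floor of 31.0, so no fold difference is given. The 3 probe sets of DDX43, a helicase of the testis in mammals, did not reach the floor in either array, the brightest being at 16.3 in PTIP deficient and 1.12 in wild-type cells.

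**Figure D2:**
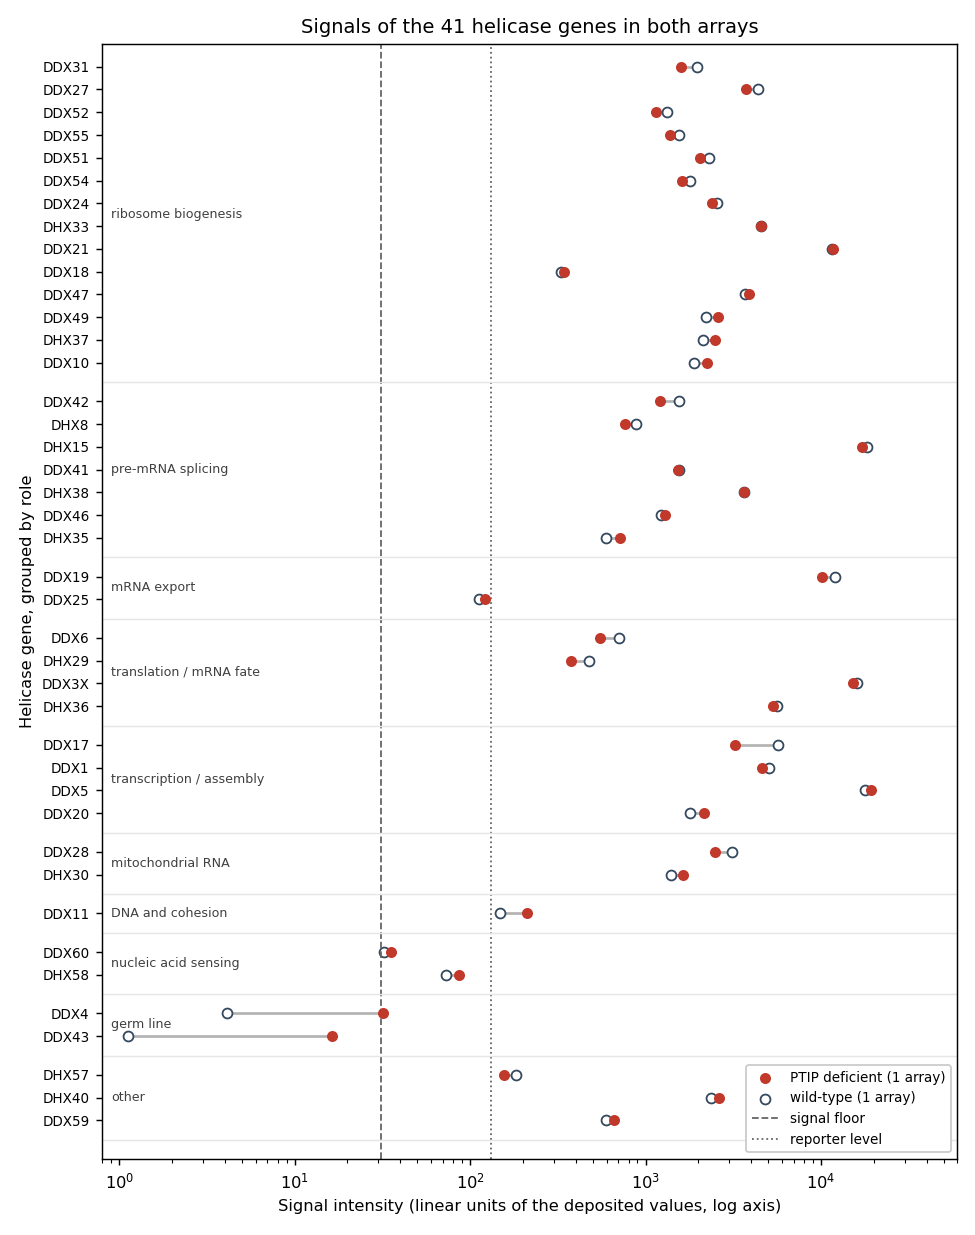
Signal intensity on a log axis of each of the 41 helicase genes (brightest probe set), grouped by role, in PTIP deficient cells (filled) and wild-type cells (open), 1 array each; the dashed line is the floor of 31.0 and the dotted line the reporter level of 131.5. Paired points nearly coincide for most genes, DDX17 shows the widest gap among the genes over both lines, and the germ line genes DDX4 and DDX43 lie at or under the floor.

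Signals of different genes come from different probe sets and give no order of transcript levels. The 5 genes with the highest mean signals were DDX5, DHX15, DDX3X, DDX21 and DDX19, and their log2 ratios lay between -0.24 and 0.12.

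The only repeat measurement was that of several probe sets for a gene, which covers probe error only. A shift common to an array, or the spread between cultures or clones, is not covered by it. The 41 genes had 102 probe sets, of which 79 were measured in both arrays. Over 26 helicase genes with at least 2 measured probe sets, the log2 ratios of the 2 brightest differed with an SD of 0.25, or 0.18 per probe set. Over 4284 such genes of the array the SD was 0.50, or 0.36 per probe set. The sign was the same for both probe sets in 19 of the 26 helicase genes and in 73.3% of all such genes. With signals over the reporter level in both arrays, 25 genes had more than 1 probe set: 12 were lower in PTIP deficient cells with each of them, against 34.1% of 2860 such genes of the array. With each probe set higher there were 4, against 37.4%, and 9 had both signs. These counts rest on few genes and were not tested. Of the 70 helicase probe sets over that level, 0 were 2-fold apart, against 5.71% of all such probe sets. Of the 79 measured, 2 were, against 9.58% of all, namely the third of DDX11 and the third of DHX36 (75.7 in PTIP deficient and 159 in wild-type cells, log2 ratio -1.07), each with 1 signal under 131.5.

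**Figure D3:**
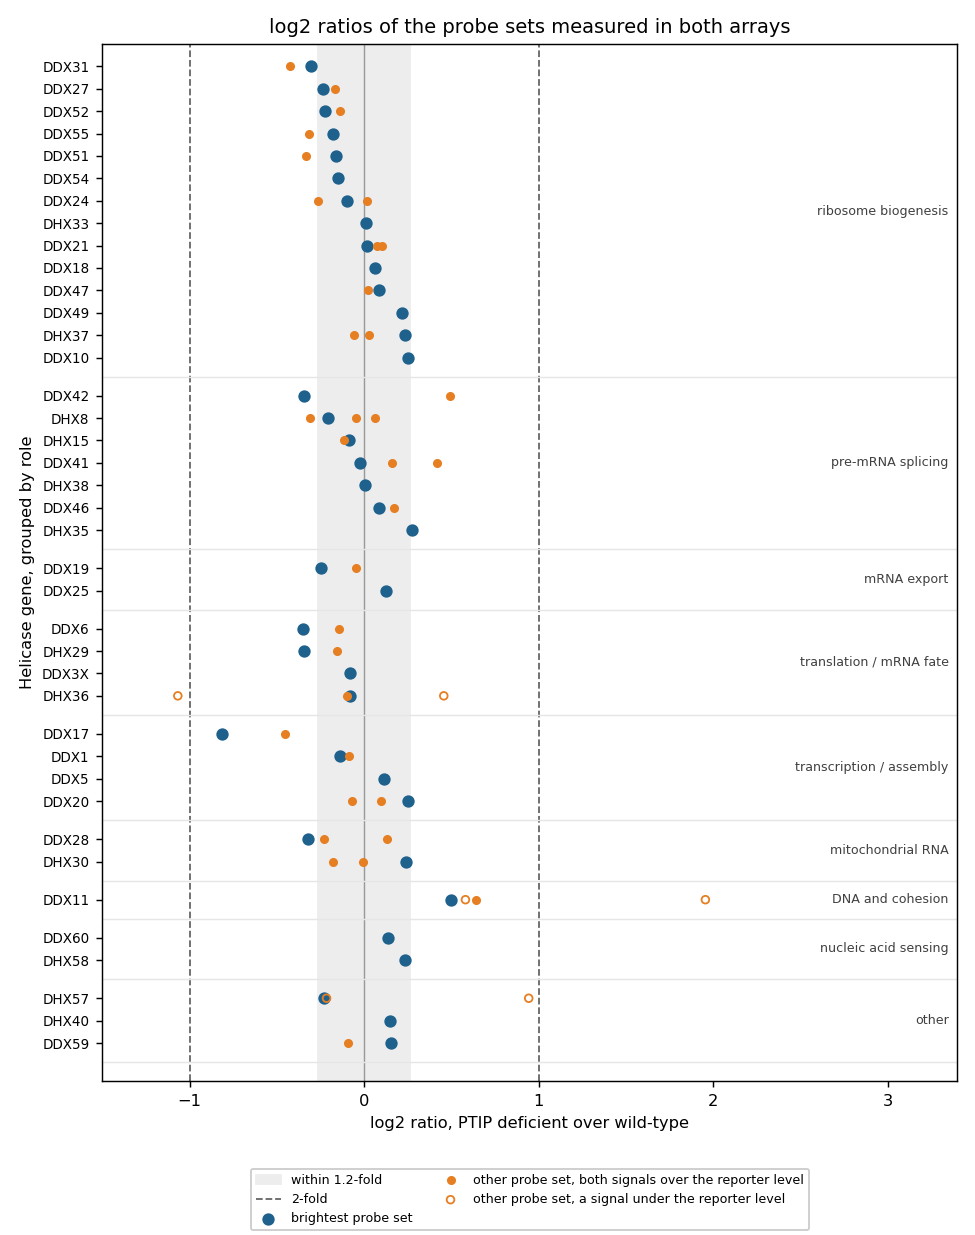
log2 ratio (x axis, PTIP deficient over wild-type) of each helicase probe set measured in both arrays, grouped by role, with the brightest probe set of a gene in blue and others in orange, hollow where a signal was under the reporter level. The brightest probe sets of 31 of 39 genes lie in the grey band of 1.2-fold, and the 2 points beyond 2-fold, for DHX36 and DDX11, are hollow.

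Split by name, the genes gave the following values. The 27 measured DDX genes had a median log2 ratio of -0.08 and a range from -0.81 to 0.50. The 12 measured DHX genes had a median of 0.01 and a range from -0.34 to 0.27.

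The helicase genes lay on 22 chromosomes of the GRCg7b RefSeq annotation, and 2 of these chromosomes had raised ratios as a whole. On chromosome 9 the median log2 ratio of 262 measured genes was 0.38, and on chromosome 20 that of 215 genes was 0.37. The helicase genes there did not all lie near these medians. DHX36 on chromosome 9 was at -0.08 and DDX27 on chromosome 20 at -0.24, both below the lower quartiles of their chromosomes (0.10 on each), while DHX35 on chromosome 20 was at 0.27. On the Z chromosome, where the median of 406 genes was -0.16, DHX29 was at -0.34. DDX17 and DDX11, with the lowest and highest ratios, both lie on chromosome 1, where the median of 1171 genes was -0.02.

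Genes that work with the helicases, or resemble them, were described by the same measures. Of all 9165 measured genes, 5.03% were at least 2-fold higher, 4.46% at least 2-fold lower and 47.4% below 0. Among genes with both signals at or over 500, 2.23% were at least 2-fold higher and 1.59% lower. With lists this short, such counts do not mark out a list. RNA helicases with other names had a median log2 ratio of -0.05 over 16 measured genes of 19 on the array, with 0 of the 16 at least 2-fold apart. MOV10 was not among the 16, with 24.2, under the floor, in PTIP deficient cells and 72.7 in wild-type cells. In this list EIF4A2, a translation initiation helicase of the DEAD box type, had 40382 in PTIP deficient and 37579 in wild-type cells (0.10). EIF4A3, the helicase of the exon junction complex, had 23274 in PTIP deficient and 21471 in wild-type cells (0.12). SKIV2L, the helicase of the cytoplasmic exosome, was at 0.57, with measured probe sets from -1.60 to 0.57. TDRD9 had signals under the reporter level in both arrays, and YTHDC2, on the Z chromosome, was at -0.35, with measured probe sets from -0.45 to 0.02.

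Of 30 measured helicase cofactors, 18 were below 0, where 47.4% of all genes were, and the median was -0.06. At least 2-fold apart were 0 of the 30, where 5.03% of all genes were higher and 4.46% lower. The largest ratio in this list was that of PDCD4, which binds the helicase EIF4A and blocks its activity. PDCD4 had 3108 in PTIP deficient and 6167 in wild-type cells, 1.98-fold lower (log2 ratio -0.99), and its 3 measured probe sets ranged from -0.99 to -0.79. AGGF1, a G-patch protein, was at -0.62 on the Z chromosome and ZGPAT, another, at 0.72 on chromosome 20.

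Ribosome biogenesis factors had a median log2 ratio of -0.07 over 42 measured genes and spliceosome genes one of -0.02 over 31. By the brightest probe set, 0 of these measured genes were at least 2-fold apart, where 5.03% of all genes were higher and 4.46% lower. PRPF4 of the spliceosome list was not among them, with 69.3 in PTIP deficient cells and 27.4, under the floor, in wild-type cells. IMP4, a protein of the small subunit processome encoded on chromosome 9, had 18268 in PTIP deficient and 9809 in wild-type cells, 1.86-fold higher. Among the ribosome biogenesis factors NOP56 was at 0.46, with 3 measured probe sets from 0.46 to 1.99, and IMP3 was at -0.45. The spliceosome gene PRPF6, on chromosome 20, was 1.52-fold higher, at 4751 in PTIP deficient and 3117 in wild-type cells, with SF3B5 at 0.57 from a wild-type signal under the reporter level and SLU7 at -0.49.

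In the exon junction and mRNA export list 1 gene was past 2-fold, where 5.03% of all measured genes were at least 2-fold higher. THOC7, a subunit of the THO complex, had 1011 in PTIP deficient and 225 in wild-type cells, 4.50-fold higher, with 1 probe set. The 13 measured genes of that list had a median log2 ratio of 0.09, and the next in size were RBM8A at 0.37 and THOC1 at -0.36. In RIG-I-like receptor signalling, 1 of 8 measured genes was at least 2-fold higher: the kinase gene IKBKE had 206 in PTIP deficient and 98.7 in wild-type cells, the wild-type signal being under the reporter level. IFIH1, the sensor MDA5, was under the floor in both arrays, at 17.9 in PTIP deficient and 19.3 in wild-type cells; TANK was at -0.46 and TRIM25 was under the reporter level in both arrays. The 7 microRNA processing genes had a median of -0.12, with AGO3 at -0.57 (0.19 with its other measured probe set), AGO1 at 0.33 and DGCR8 at -0.21. The 7 SMN complex genes had a median of 0.09, with GEMIN5 at 0.38, GEMIN8 at 0.29 and STRAP at -0.28. The signals of AGO1 and GEMIN5 were under the reporter level in both arrays. The median size of the log2 ratio, either way, was 0.18 for the 39 helicase genes and 0.30 for all measured genes. It was 0.12 for spliceosome genes, 0.15 for RNA helicases with other names, 0.16 for SMN complex genes and 0.17 for ribosome biogenesis factors. In the other lists it was 0.20 (exon junction and mRNA export), 0.21 (microRNA processing), 0.22 (helicase cofactors) and 0.26 (RIG-I-like receptor signalling). A small size was thus not particular to the family.

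**Figure D4:**
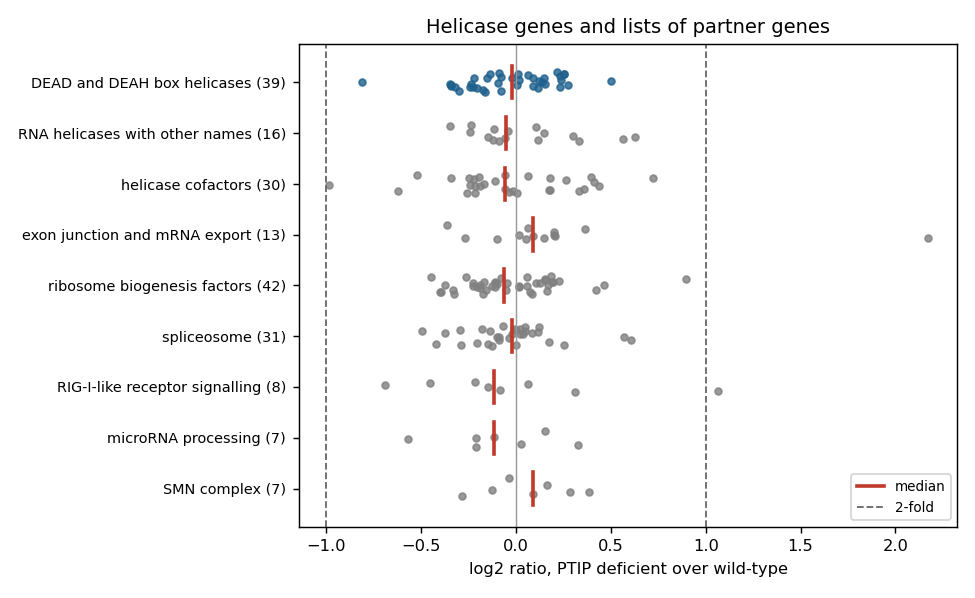
log2 ratio (x axis, PTIP deficient over wild-type) of each gene measured in both arrays, for the 39 helicase genes (blue) and 8 lists of genes that work with them (grey, number of genes in brackets), with the median of each in red and dashed lines at 2-fold. The medians lie between -0.12 and 0.09, and only THOC7 and IKBKE lie beyond 2-fold.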

How the data were processed

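One array per genotype, 2 in all, was read from the deposited table. It holds intensity values on a linear scale, which the authors obtained with GCOS, the array scanner's software, per the submitters' processing notes. Version and algorithm: not given in the sources used here. Both columns had the same trimmed mean (499.9 between percentiles 2 and 98), so they had been scaled; this sets the average transcript level equal in both arrays, so a difference in RNA per cell cannot be seen. The number of arrays limits the precision.

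From these, log2 ratios were taken as PTIP deficient minus wild-type, with no pseudocount, after leaving out 96 control probe sets. Genes were named from the platform annotation, and Entrez identifiers were matched to RefSeq for chromosomes (41 of 41 helicase genes matched). The RefSeq symbols DDX23, DHX32 and DHX34 had no match by platform symbol and were not analysed here. The floor was percentile 40 of the non-control values, and alternatives are given in the closing section. A log2 ratio or the signals are given for each helicase gene. For partner lists they are given for genes with up to 3 of the largest absolute ratios. EIF4A2, EIF4A3, IFIH1, MOV10 and PRPF4 were added to these after their values were seen. Members and lists were chosen with earlier results of these data known. Scripts used Python 3.11.15, pandas 2.3.3 and statsmodels 0.14.6 and were tested on simulated data.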

Additional observations from a re-analysis of the deposited data

How the results depend on the processing

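No paired analysis was possible because each genotype had 1 array. The count of helicase genes at least 2-fold lower was 0 under each of the 9 other settings and with both signals at or over 500. The count at least 2-fold higher was 0 under each of these but one: with no floor it was 2, from DDX4 and DDX43, whose signals did not both reach the floor. The median log2 ratio was -0.095 with the second brightest probe set (26 genes) and -0.093 without _s_at and _x_at probe sets (33 genes), and it was above 0 with no floor (0.01) and with the mean of all measured probe sets (0.02), so the family's direction was not settled. Under median centring, quantile normalization and loess the median lay between -0.04 and -0.03, and the sign held for 36 of 39 genes. Those that turned were DDX21, DHX33 and DHX38. These scalings align the bulk of 2 arrays that already shared a trimmed mean, so they shift ratios little and are a weak check of the sign. None of them used the hybridisation controls, whose median log2 ratio was 0.30. Ratios below 0 were found for 17 of 39 genes (mean of measured probe sets), 19 of 26 (second brightest) and 22 of 33 (without _s_at and _x_at), where all genes gave 47.6%, 49.0% and 48.1%. The settings with 26 and 33 genes leave out members, so they differ from the main values in the genes compared too. DDX11 lay farther from 0 than DDX17 in the mean of measured probe sets and the second brightest. Changing the floor or keeping only bright genes leaves the ratio of a gene as it was, so many of the values below could not move. Of 359 values of single genes under the alternatives, 352 moved by less than the probe set SD of 0.36 over all genes. The 7 others were DDX11 (0.92), DDX42 (0.07) and DHX57 (0.17) with the mean of measured probe sets, DDX17 (-0.45), DDX41 (0.42) and DDX42 (0.49) with the second brightest, and DHX30 (-0.18) without _s_at and _x_at probe sets. The cause was not tested. Against the smaller SD of 0.18 among helicase genes more values would count as moved. An example is DDX20, at 0.25 with the brightest and -0.07 with the second brightest probe set. Dim signals limit what can be said of DDX4, DDX25, DDX43, DDX60 and DHX58, none of which reached the reporter level in either array. The brightest probe set of DDX11 was only a little over that level in wild-type cells, at 149. With both signals at or over 500, DDX11 was not among the 32 genes left, and the highest ratio was 0.27.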

Other observations

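Dimmer probe sets of some helicase genes had values that enter no comparison above. One further probe set of DHX36 had a signal of 15.5 in PTIP deficient and 138 in wild-type cells, at least 4.44-fold lower against the floor, while the brightest probe set of DHX36 had a log2 ratio of -0.08. The name of the dim probe set carries the letter A, whose meaning for the strand was not given in the sources used here, and the probe set of the same number with the letter S went the other way, at 56.5 in PTIP deficient and 41.2 in wild-type cells (0.46). One further probe set of DHX57 had 22.8 in PTIP deficient and 78.3 in wild-type cells, at least 2.52-fold lower. In the other direction, one of DDX52 had 55.3 in PTIP deficient and 13.0 in wild-type cells, at least 1.78-fold higher. The wild-type signal of the DHX36 probe set was the one value of these that exceeded the reporter level of 131.5.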
